A study of Mus musculus with 6 samples.

Results

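The genes described here are the potassium channel genes of mouse hippocampus, taken as every row of the deposited gene table whose name begins with Kcn, apart from Kcnj10 and Kcnj13. The rule gave 97 of 41386 genes. Of these, 90 had 10 or more reads over the 6 libraries and were tested, among 22996 genes of the whole table at that limit. The members were followed in 5 name groups, with 40 members named Kcna to Kcns (this range also takes in the auxiliary Kcnab, Kcne, Kcnip and Kcnrg genes), 13 Kcnj, 14 Kcnk, 11 Kcnm and Kcnn, and 14 Kcnq and Kcnh. A further 5 were Kcnt, Kcnu and Kcnv genes. Non-coding RNAs made up 5 of the 97 (Kcnab3os, Kcnd3os, Kcnmb4os1, Kcnmb4os2 and Kcnq1ot1), and 4 of these were tested.

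RNA was sequenced from the hippocampus of wild-type C57BL/6 mice (C57BL/6J in the study's methods), 56 days old, in 3 ischemia/reperfusion (I/R) libraries and 3 sham libraries. In the I/R mice a filament entered the internal carotid artery and was left for 1.5 h so that it closed the middle cerebral artery, and reperfusion then lasted 24 h. The sham mice had the same surgery without the filament. No allele was altered in either group, and all animals had isoflurane anesthesia. The study's methods state that only male mice were used, that the hippocampus was taken on the occluded side, and that hippocampi were pooled in each replicate, so the spread between libraries is one between pools.

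Potassium channels let potassium leave a cell and so hold the resting potential, end the action potential and limit how often a neuron fires. Voltage-gated channels open on depolarization, inward rectifiers and two-pore channels set the resting potential, and calcium- or sodium-activated channels follow ion entry. In the hippocampus these currents shape dendritic integration and burst firing, and the channels of glia and vessels clear or release the potassium that active neurons shed. Many channels are complexes of pore subunits with auxiliary proteins that set their number at the membrane and their gating.

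Windows of 250 bases before the annotated transcription start are given for 3 members that rose after I/R (Kcnj15, Kcne4 and Kcnj2) and 3 that fell (Kcnip2, Kcnk4 and Kcnd2). In each direction these had the largest log2 fold changes among called members with exactly 1 window. Members with several windows or none were passed over, some of them with larger falls than Kcnd2. The sequences are from RefSeq on GRCm38.p6 and are written in the direction of transcription. Capitals mark matches to any of 6 short motifs searched on both strands, namely the GC box (GGGCGG), the E-box (CACGTG), the CCAAT box (its letters as named), the AP-1 site (TGANTCA, N being any base), the cAMP response element (TGACGTCA) and the TATA box (TATAAA). None of the motifs contains another.
Kcnj15, chr16:95257308-95257557, plus strand: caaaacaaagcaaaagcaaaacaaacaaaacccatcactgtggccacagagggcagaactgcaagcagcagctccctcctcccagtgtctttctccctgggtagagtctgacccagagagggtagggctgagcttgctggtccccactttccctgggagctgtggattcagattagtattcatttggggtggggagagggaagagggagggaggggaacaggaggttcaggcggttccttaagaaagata
Kcne4, chr1:78816661-78816910, plus strand: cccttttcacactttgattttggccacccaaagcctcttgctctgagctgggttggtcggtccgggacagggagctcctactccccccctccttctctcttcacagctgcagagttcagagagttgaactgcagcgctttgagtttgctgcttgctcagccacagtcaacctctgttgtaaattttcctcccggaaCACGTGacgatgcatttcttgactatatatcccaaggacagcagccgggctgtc
Kcnj2, chr11:111065914-111066163, plus strand: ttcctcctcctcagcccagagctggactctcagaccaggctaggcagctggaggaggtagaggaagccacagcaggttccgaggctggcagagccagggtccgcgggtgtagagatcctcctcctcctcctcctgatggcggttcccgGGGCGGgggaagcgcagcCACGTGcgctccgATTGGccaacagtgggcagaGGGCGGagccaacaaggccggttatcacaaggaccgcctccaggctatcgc
Kcnip2, chr19:45816064-45816313, minus strand: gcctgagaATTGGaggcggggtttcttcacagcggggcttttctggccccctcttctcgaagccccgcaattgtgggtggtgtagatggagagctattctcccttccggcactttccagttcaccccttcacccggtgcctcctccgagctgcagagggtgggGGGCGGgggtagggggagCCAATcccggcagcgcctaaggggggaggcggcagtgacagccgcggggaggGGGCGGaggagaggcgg
Kcnk4, chr19:6934516-6934765, minus strand: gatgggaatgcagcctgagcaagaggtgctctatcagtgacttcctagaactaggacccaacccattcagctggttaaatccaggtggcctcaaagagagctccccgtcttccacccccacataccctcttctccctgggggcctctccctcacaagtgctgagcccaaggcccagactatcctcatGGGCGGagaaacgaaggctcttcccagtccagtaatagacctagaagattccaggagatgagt
Kcnd2, chr6:21215096-21215345, plus strand: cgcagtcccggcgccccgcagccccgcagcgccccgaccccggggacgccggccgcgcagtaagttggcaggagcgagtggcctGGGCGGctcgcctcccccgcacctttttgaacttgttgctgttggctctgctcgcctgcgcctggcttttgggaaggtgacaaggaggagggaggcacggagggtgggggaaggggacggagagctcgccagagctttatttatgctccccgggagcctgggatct

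The Kcnj2 window held GC boxes at -102 and -51, an E-box at -84 and a CCAAT box on the other strand at -71, counted back from the start. In the Kcne4 window the E-box lay at -54, and the Kcnj15 window matched none of the 6 motifs. Over all members with an entry (70 of 97, with 95 windows), 44.2% of windows held a GC box, 28.4% a CCAAT box, 6.32% an E-box, 4.21% an AP-1 site and 2.11% a TATA box, and 0 held a cAMP response element. Among all 32851 windows of the same length the shares were 32.7%, 33.8%, 6.02%, 6.75%, 12.4% and, for the cAMP element, 1.55%. The member windows were thus richer in the GC box and poorer in the TATA box than promoters at large, as a description without a test. For the members that fell (47 windows) the GC box share was 46.8%, and for those not called (36 windows) 44.4%.

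Total counts ran from 37493042 to 44788547 per library, and 88 to 92 members had a read in a library. Markers of dentate granule cells and CA pyramidal cells, the main neurons of the hippocampus, were abundant in every sham library, with summed levels of 515 to 560 and 1015 to 1080 CPM (counts scaled to library size, here with TMM factors, the trimmed means of edgeR), while 5 striatal markers summed to 28.7 to 38.1 CPM over all libraries (1 rose, Drd1). I/R replicate 1 stood apart from the other I/R libraries, with the 6 pan-neuronal markers at a sum of 1418 CPM against 2639 and 2938 in I/R replicates 2 and 3 and 5256 to 5506 in sham. Choroid plexus markers were low in I/R replicate 3 and sham replicate 1, and these libraries are treated separately where a member depends on them.

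The question put to these genes was which of them changed in the hippocampus 24 h after blood flow returned. Most of the change was downward. A gene was called at an adjusted p under 0.05 (edgeR quasi-likelihood test, Benjamini-Hochberg over all 22996 genes) and a fold change over 1.2. By this rule 44 of the 90 tested members were lower after I/R (48.9%, against 16.3% of all genes tested) and 9 were higher (10%, against 17.2% of all genes). The other 37 were not called. The median log2 fold change of the 90 members was -0.51, and that of all genes was 0.07.

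The libraries of the groups did not overlap in 67 members (74.4%), compared with 50.4% of all genes. Summed over the 97 members, the level was 2611, 3900 and 3896 CPM in I/R replicates 1, 2 and 3 and 6422, 6379 and 6325 CPM in the sham replicates. I/R replicate 1 was the lowest library in 38 of the 44 members that fell. Without it, 48 members were lower and 9 higher, so the fall did not rest on that library (all genes, 18.3% lower and 18.3% higher). Without sham replicate 1 and I/R replicate 3 together, 35 were lower and 6 higher (all genes, 11.3% and 12.1%). Leaving out sham replicate 2 moved the higher count most, to 5, with 32 lower. Calls also became fewer over all genes in that refit, with 12.2% higher and 10.6% lower.

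The split between directions moved with the scaling. With library size only, the median of all genes moved from 0.07 to 0.35 and that of the members from -0.51 to -0.24, with 31 members lower and 14 higher. Of all genes in that setting, 28.2% were higher and 8.49% lower. Calls of a rise were then 31.1% of the members' calls, against 17.0% with TMM. The members that lost a call of a fall were Kcnc4, Kcnd1, Kcng3, Kcns3, Kcnj3, Kcnj4, Kcnj12, Kcnk12, Kcnma1, Kcnn1, Kcnh2, Kcnh5 and Kcnt1, and those that gained a call of a rise were Kcnd3, Kcnip3, Kcnd3os, Kcnq1ot1 and Kcnv2. In bulk tissue, fewer cells of a type and less RNA per cell cannot be told apart. Neuronal markers moved with the members, since all 6 pan-neuronal markers fell (median log2 fold change -1.16), as did all 6 of the dentate granule cell (-1.96), 4 of 6 of the CA pyramidal cell (-1.19) and 4 of 6 of the GABAergic interneuron (-0.36). With library size only the falls numbered 6, 6, 4 and 1 of 6 in these lists. Their part in the result was not tested.

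**Figure D1:**
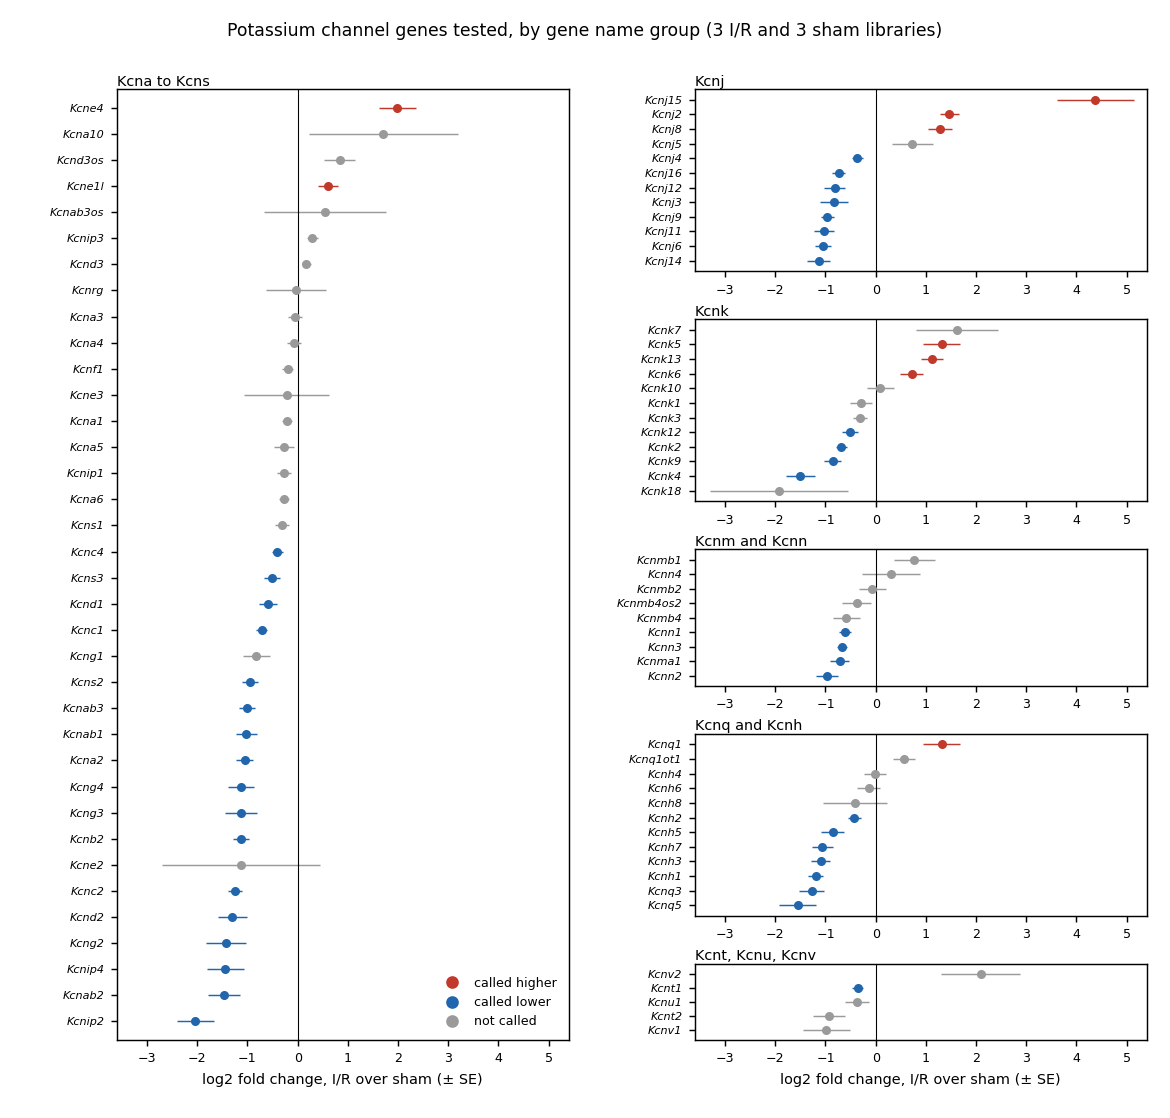
Log2 fold change of tested potassium channel genes (I/R over sham, x axis, bars are the standard error from the edgeR fit on 3 libraries per group), in panels by gene name group, with genes ordered by change, for the 86 genes drawn. Blue genes were called lower (41), red higher (9) and grey not called (36), and Kcne2 and Kcng1 are grey among the blue genes of the Kcna to Kcns panel.

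Direction went with level. Among the 52 members at 10 CPM or more over the 6 libraries, 36 fell and Kcnj2 alone rose, with a median of -0.82. Of all 10644 genes at that level, 29.7% fell and 21.1% rose, and their median was -0.09. Among the 38 members under 10 CPM, 8 rose and 8 fell, where 13.8% of all genes under 10 CPM rose and 4.66% fell. The highest member by length-scaled level (FPKM, fragments scaled to gene length and library size by the authors) was Kcnab2, at 860 FPKM in sham, and Kcnip2 was at 159. Kcnab2 alone held 34.6% to 35.5% of the FPKM of all members in the sham libraries, and 17.3%, 28.3% and 27.1% in I/R replicates 1, 2 and 3. These shares rest on the length behind the FPKM, which for Kcnab2 was not the listed one of 3922 bases. In CPM, its sham mean was 1242, where the members summed to 6325 to 6422 CPM.

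**Figure D2:**
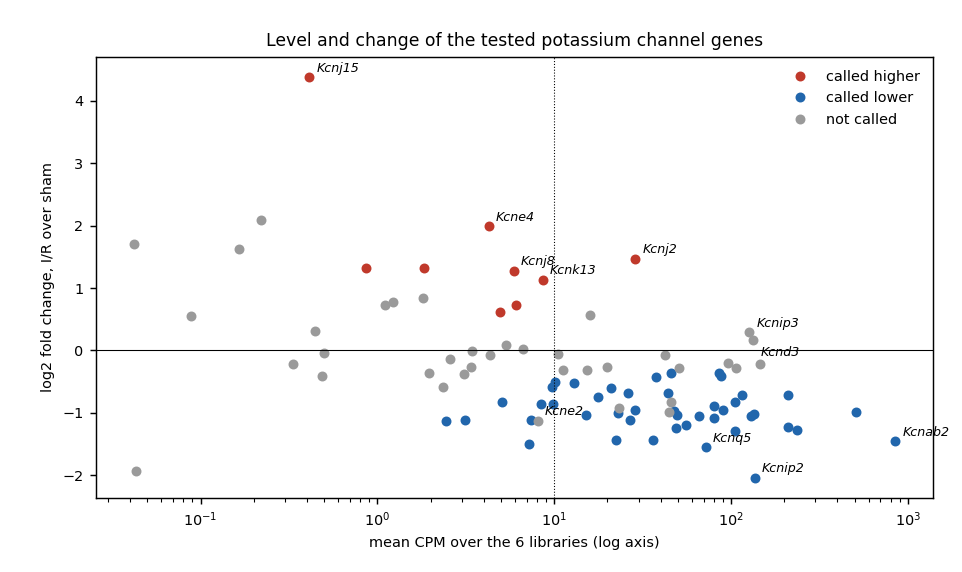
Log2 fold change of the 90 tested potassium channel genes (y axis) against their mean level over the 6 libraries (x axis, CPM on a log scale), one point per gene, coloured by call. The dotted line marks 10 CPM, to the right of which 36 genes were called lower and Kcnj2 was the 1 called higher.

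Voltage-gated channels and their auxiliary proteins (Kcna to Kcns) held the largest single fall, that of Kcnip2. Of 38 tested members, 19 fell, 2 rose and 17 were not called, with a median of -0.55 (-0.27 with library size only). By role, 9 of 16 pore-forming genes fell and 0 rose in edgeR with TMM, though Kcnd3 rose with library size only, and 0 had an unadjusted p under 0.05 for a rise. Among the 8 silent subunits named Kcnf, Kcng or Kcns, 5 fell and 0 rose, again with 0 rises at an unadjusted p under 0.05 and 0 by DESeq2. Of the 12 auxiliary genes, 5 fell and 2 rose.

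The Kcnd genes carry the transient A-type current of hippocampal dendrites, and the Kcnip genes encode the calcium-binding proteins that escort Kcnd channels to the membrane. Kcnip2 had the largest fall of all members (chromosome 19, 43254210 to 43280134 on the BALB/cJ assembly). It stood at 24.6, 56.5 and 78.2 CPM in the I/R replicates and 233, 208 and 215 CPM in the sham replicates. All 3 I/R libraries were below all 3 sham libraries, and the log2 fold change was -2.04 (standard error, SE, 0.37, edgeR adjusted p = 0.00526). Kcnip4 was at 9.25, 19.7 and 30 CPM in I/R and 61.2, 49.6 and 49.0 CPM in sham (log2 fold change -1.44, SE 0.37, edgeR adjusted p = 0.0218). Its call was lost without I/R replicate 2 (adjusted p = 0.0509), with no count filter (0.0964) and with the replicate block (0.0622), and an unrelated transcript on the opposite strand, 5730480H06Rik, overlaps it. Kcnd2, the main A-type pore of pyramidal dendrites, gave 33.3, 72.2 and 79.2 CPM in I/R and 164, 140 and 149 CPM in sham. It fell by 1.30 on the log2 scale (SE 0.29, edgeR adjusted p = 0.0102), and lost its call with no count filter (adjusted p = 0.0512).

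Kcnd1, a minor A-type pore, fell by 0.59 (adjusted p = 0.0245), and lost its call without sham replicate 1 (0.0732) or sham replicate 2 (0.103) and with library size only (-0.32, 0.155).

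Kcnip3, Kcnd3 and Kcnip1 passed the test in neither direction. Kcnip3, whose protein is also known as a calcium-dependent repressor of transcription, was at 124, 146 and 149 CPM in I/R and 108, 126 and 108 CPM in sham, so that the lowest I/R library lay under the highest sham library. Its log2 fold change was 0.29 (SE 0.11, edgeR adjusted p = 0.0676), and without I/R replicate 1 it passed the test at 0.38 (adjusted p = 0.000233). Kcnip3 also passed with library size only, at 0.57 (adjusted p = 0.00168), with upper quartile scaling (0.0499), with both stricter filters on low counts (0.0414 and 0.0265) and on log2 FPKM (0.00299 and 0.004). Kcnd3, the other abundant A-type pore, was at 150, 137 and 139 CPM in I/R and 128, 131 and 119 CPM in sham. Here every I/R library lay above every sham library, at 0.17 on the log2 fold scale (SE 0.09, adjusted p = 0.179 in edgeR), and with library size only Kcnd3 passed at 0.45 (adjusted p = 0.0066). Kcnip1 had a log2 fold change of -0.27 (adjusted p = 0.167), which with library size only was 0.01.

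The make-up of both families is described by shares, and a share within a library does not depend on how libraries are scaled. It does depend on the gene lengths behind the FPKM. Kcnip2 held 66.2%, 62.9% and 66.3% of the Kcnip FPKM in the sham replicates and 21%, 32.8% and 39.0% in the I/R replicates. Kcnip3 held 19.6%, 24.0% and 21.1% in sham and 66.9%, 53.7% and 47.1% in I/R. In sham Kcnip2 was the leading Kcnip transcript in all 3 libraries, and in I/R Kcnip3 led in all 3. Within Kcnd, the share of Kcnd2 was 40.2% ± 2.49 in sham and 19.9% ± 7.29 in I/R (SD, n = 3 each), and that of Kcnd3 was 54.4% ± 2.02 and 75.8% ± 7.62. The lead of Kcnd3 in sham rests on the lengths behind the FPKM, which are not always those listed. Mean sham values were 151 CPM and 26.7 FPKM for Kcnd2, listed at 5152 bases. For Kcnd3, listed at 7183 bases, they were 126 CPM and 36.1 FPKM. Without I/R replicate 1, the library farthest from sham, the difference in share was -29.3 percentage points for Kcnip2 and -16.2 for Kcnd2. These shares were chosen after their values were seen and are given without a test.

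**Figure D3:**
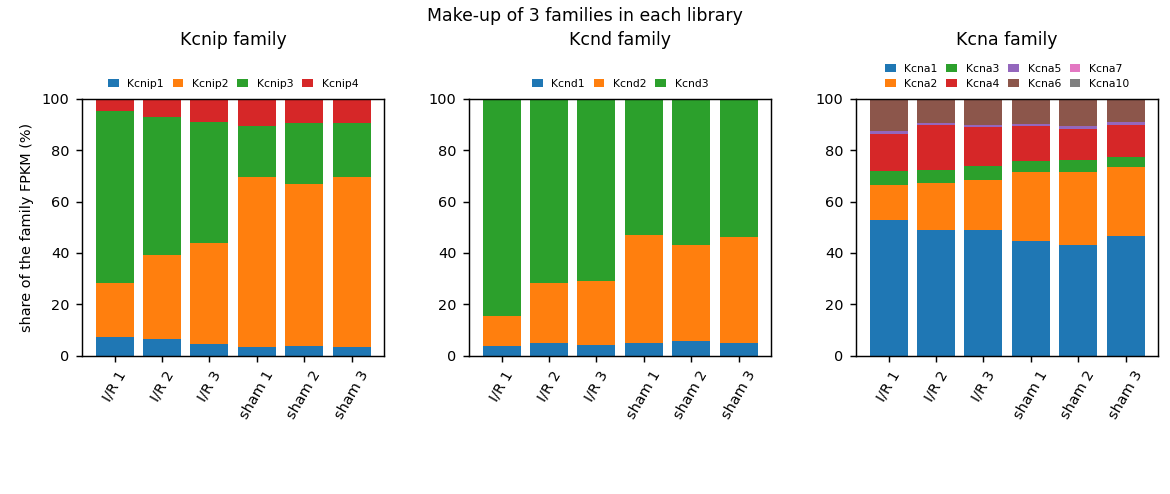
Share of each gene in the summed FPKM of the Kcnip, Kcnd and Kcna families (y axis, percent) in each of the 6 libraries (x axis), as stacked bars. Kcnip2 (orange, left) takes 62.9% to 66.3% in sham and 21% to 39.0% in I/R, while Kcnip3 (green, left) takes 19.6% to 24.0% and 47.1% to 66.9%.

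The Kcna genes form the low-threshold channels of axons, and the Kcnab genes encode the beta subunits attached to them inside the cell. All 3 Kcnab genes fell. Kcnab2 (chromosome 4, 150418522 to 150506378 on the BALB/cJ assembly) was at 221, 583 and 554 CPM in I/R and 1228, 1261 and 1236 CPM in sham. I/R replicate 1 was lower than the other I/R libraries, which were in turn lower than every sham library, and the log2 fold change was -1.46 (SE 0.32, edgeR adjusted p = 0.00999). Kcnab1 and Kcnab3 had log2 fold changes of -1.02 and -1.01 (edgeR adjusted p = 0.00721 and 0.0017).

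Of the 7 tested Kcna pores, Kcna2 was the 1 that fell. It gave 59.9, 91.8 and 99.5 CPM in I/R and 171, 173 and 176 CPM in sham (log2 fold change -1.05, SE 0.17, edgeR adjusted p = 0.00203). Its partner in axonal channels, Kcna1, was at 127, 136 and 139 CPM in I/R and 157, 145 and 166 CPM in sham. The groups did not overlap in Kcna1 either, yet the log2 fold change was -0.22 (SE 0.10, edgeR adjusted p = 0.115), and with library size only it was 0.06. The FPKM ratio of Kcna1 to Kcna2 was 3.83, 2.67 and 2.53 in the I/R replicates and 1.66, 1.50 and 1.70 in the sham replicates. Kcna3, the channel of T cells and activated microglia, and Kcna4 had log2 fold changes of -0.05 and -0.08, both above 0 with library size only (0.22 and 0.19). Kcna5 was at -0.27 and Kcna6 at -0.28 (adjusted p = 0.336 and 0.0516). Kcna6 passed the test without I/R replicate 1, at -0.33 (adjusted p = 0.00328). Kcna10 had between 0 and 4 reads in any library.

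Kcnc1, Kcnc2 and Kcnc4, whose channels repolarize fast-firing neurons, fell. Kcnc2, a channel of interneurons, fell by 1.24 on the log2 scale and Kcnc1 by 0.72 (edgeR adjusted p = 0.000478 and 0.000845). Kcnc4 fell by 0.41 (adjusted p = 0.0158), and lost its call without sham replicate 2 (-0.32, adjusted p = 0.0732) or sham replicate 3 (-0.43, adjusted p = 0.0522), and with library size only (-0.13, adjusted p = 0.305). Kcnb2, a pore of the delayed rectifier, fell by 1.12 on the log2 scale (edgeR adjusted p = 0.00102).

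Silent subunits form no channel alone and alter the Kcnb channels they join. Kcng2 (-1.43), Kcng3 (-1.12), Kcng4 (-1.12), Kcns2 (-0.95) and Kcns3 (-0.51) fell, with edgeR adjusted p-values of 0.00226 to 0.0353. Kcns2 kept its call in all 17 refits, while Kcng2 lost it without sham replicate 1 (adjusted p = 0.0558) or sham replicate 2 (0.065) and with no count filter (0.114). Kcng3 lost its call without I/R replicate 2 (0.0746) or sham replicate 2 (0.111). Kcng4 lost its call without sham replicate 1 and I/R replicate 3 together (-1.16, adjusted p = 0.0542). Kcns3 lost it without I/R replicate 2 (0.1) or any 1 sham library (0.0591 to 0.128). Kcng1 was at -0.82 (adjusted p = 0.0532) and passed without I/R replicate 1 (-0.53, adjusted p = 0.000361) or I/R replicate 2 (-1.11, adjusted p = 0.0183). Kcnf1 was at -0.20 and Kcns1 at -0.32 (adjusted p = 0.187 and 0.104), and Kcnf1 stood at 0.08 with library size only.

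The single-span Kcne proteins bind many voltage-gated pores, and 2 of the 4 tested rose. Kcne4 (chromosome 1, 76867505 to 76870795 on the BALB/cJ assembly), an inhibitory subunit of Kcnq1 and Kcna channels, was at 10.2, 6.40 and 3.88 CPM in I/R and 1.47, 1.47 and 2.22 CPM in sham. Every I/R library was above every sham library, at 1.99 on the log2 fold scale (SE 0.36, adjusted p = 0.00315 in edgeR) and a call in all 17 refits. Kcne1l had 5.17, 6.70 and 6.05 CPM in I/R and 3.94, 3.30 and 4.48 CPM in sham (log2 fold change 0.61, SE 0.20, edgeR adjusted p = 0.0409). That call was lost without I/R replicate 2 or 3 (adjusted p = 0.141 and 0.0909) and without any 1 sham library (0.0599 to 0.137). Kcne3 stayed under 1 CPM in every library, with a log2 fold change of -0.22.

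Kcne2 is known for its high level in the choroid plexus, the epithelium that makes cerebrospinal fluid. It was at 7.02, 7.63 and 0.498 CPM in I/R and 0.0772, 11.7 and 21.6 CPM in sham. The 7 choroid plexus markers (Ttr, Folr1, Kl, Clic6, Prlr, Otx2 and Kcnj13) summed to 1573, 3613 and 39.8 CPM in the same I/R libraries and 41.3, 2717 and 4476 CPM in the same sham libraries. The libraries with little of this tissue were thus also those low in Kcne2. Of these markers 0 were called by edgeR, 0 had an unadjusted p under 0.05 and 0 were called by DESeq2 (median log2 fold change -0.94). Over all libraries Kcne2 had a log2 fold change of -1.13 and an SE of 1.58, with an adjusted p of 0.636 in edgeR. Without I/R replicate 3 and sham replicate 1 it was -1.18 (adjusted p = 0.031), on 2 libraries a group in which the marker sum was 1573 and 3613 CPM for I/R and 2717 and 4476 CPM for sham. The part of choroid plexus tissue in this value was not tested.

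**Figure D4:**
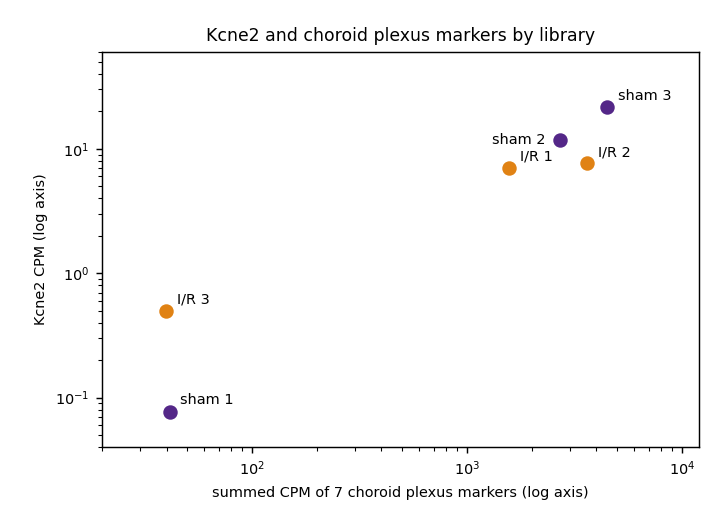
Kcne2 level (y axis, CPM, log scale) against the summed level of 7 choroid plexus markers (x axis, CPM, log scale), one point per library, I/R in orange and sham in purple. I/R replicate 3 and sham replicate 1 sit low on both axes, at 0.498 and 0.0772 CPM of Kcne2.

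Inward rectifiers (Kcnj) had both the largest rise of all members and a broad fall. Of 12 tested, 8 fell, 3 rose and Kcnj5 was not called (0.73, adjusted p = 0.202), and the median was -0.78 (-0.50 with library size only, with 5 falls). Kcnj15 rose from near absence (chromosome 16, 92535639 to 92579037 on the BALB/cJ assembly). It had 1.17, 0.673 and 0.523 CPM in I/R and 0.0515, 0.0497 and 0 CPM in sham. All sham libraries were at or under 3 reads, so against a floor of 3 reads per library (0.0799 CPM) the I/R mean was at least 9.86-fold higher (edgeR adjusted p = 0.00265). Kcnj2, the classical strong inward rectifier (chromosome 11, 110204701 to 110215996 on the BALB/cJ assembly), was at 40.0, 53.8 and 32.6 CPM in I/R and 17.2, 15.1 and 13.3 CPM in sham. It rose by 1.47 on the log2 fold scale (SE 0.19, adjusted p = 0.000698 in edgeR). Its share of the FPKM of the Kcnj members, without Kcnj10 and Kcnj13, was 7.68%, 7.63% and 4.61% in I/R against 1.70%, 1.49% and 1.31% in sham. Kcnj8 had 11.3, 7.92 and 5.88 CPM in I/R and 3.50, 3.33 and 3.48 CPM in sham (log2 fold change 1.28, SE 0.24, edgeR adjusted p = 0.00398). These 3 rises were called in every refit that tested the gene.

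Kcnj8 and Kcnj11 are the pores of the ATP-sensitive channels, which open when the energy charge of a cell falls. Kcnj8 pairs with the sulfonylurea receptor Abcc9 in pericytes and smooth muscle, and Kcnj11 with Abcc8 in neurons. Kcnj11 was at 6.87, 11.1 and 11.9 CPM in I/R and 18.8, 21.5 and 20.5 CPM in sham, and it fell by 1.03 on the log2 scale (SE 0.20, edgeR adjusted p = 0.00416). Abcc8 fell with it, by 1.38 (adjusted p = 0.000146), while Abcc9 was at 0.29 (adjusted p = 0.186). In FPKM, the ratio of Kcnj8 to Kcnj11 was 0.798, 0.348 and 0.240 in the I/R replicates and 0.0905, 0.0753 and 0.0825 in the sham replicates. Among markers of pericytes and smooth muscle, 2 of 6 rose and 2 fell, or 3 and 0 with library size only (summed level 201 to 247 CPM in I/R, 216 to 248 CPM in sham), and all 5 endothelial markers rose (297 to 495 CPM against 178 to 181 CPM). Their part in the Kcnj8 rise was not tested.

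Kcnj3, Kcnj6 and Kcnj9 form the channels that G proteins open in pyramidal dendrites, and all 3 fell. Kcnj9 had the highest mean FPKM of the Kcnj members in sham (43.2, with Kcnj4 at 40.6), though by counts per listed length Kcnj4 was higher. Kcnj9 was at 51.3, 61.8 and 71.5 CPM in I/R and 115, 127 and 117 CPM in sham (log2 fold change -0.96, SE 0.12, edgeR adjusted p = 0.000762). Kcnj6 was at 24.2, 38.7 and 34.0 CPM in I/R and 68.7, 62.8 and 67.7 CPM in sham (-1.04, SE 0.16, adjusted p = 0.0014). Kcnj3 was at 43.8, 83.1 and 100 CPM in I/R and 151, 117 and 136 CPM in sham (-0.83, SE 0.27, adjusted p = 0.0469). The fall of Kcnj3 was the least firm, since it lost its call without I/R replicate 2 (0.0735) or any 1 sham library (0.0691 to 0.115).

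Among the other rectifiers, Kcnj4, a strong rectifier of forebrain neurons, was at 63.5, 83.8 and 75.3 CPM in I/R and 90.8, 102 and 95.3 CPM in sham (log2 fold change -0.37, SE 0.11, edgeR adjusted p = 0.0332). It lost its call without any 1 sham library (adjusted p = 0.069 to 0.128) and with library size only (-0.10). Kcnj14 was at 1.47, 1.42 and 1.72 CPM in I/R and 3.19, 3.01 and 3.89 CPM in sham (-1.13, SE 0.23, adjusted p = 0.00586). In the GENCODE M21 transcripts, 30.8% of the 50-base stretches of Kcnj14 also occur in Gm5522, so its count is uncertain. Kcnj16, which joins glial rectifiers, and Kcnj12 fell by 0.74 and 0.82 (adjusted p = 0.00317 and 0.0118), and Kcnj12 lost its call without sham replicate 2 (0.0591). Kcnj1, the renal outer medullary channel, had 0 reads in all 6 libraries, which allows up to 3 reads a library.

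**Figure D5:**
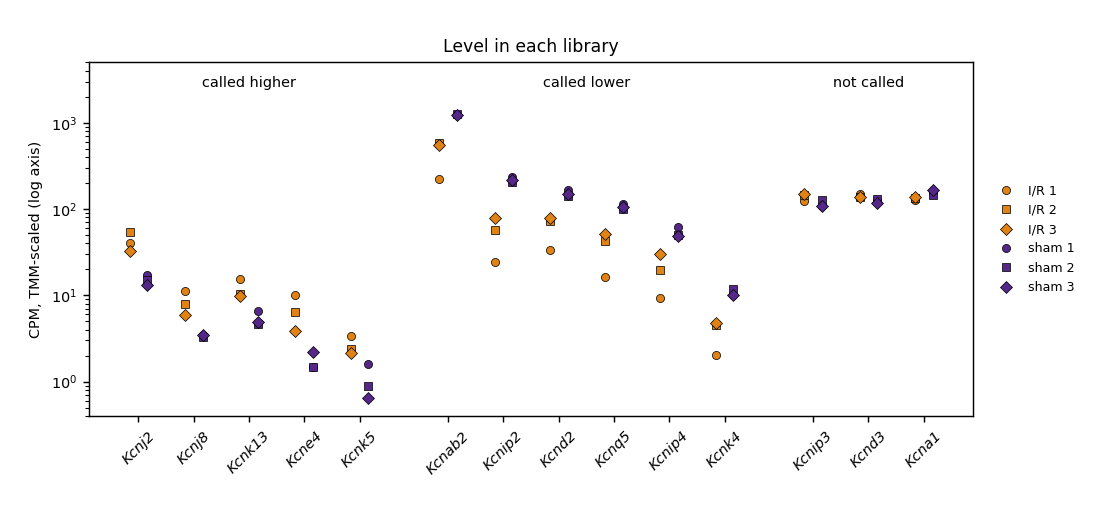
Level of 14 potassium channel genes in each library (y axis, CPM on a log scale), I/R replicates in orange at the left of each gene and sham replicates in purple at the right, with the replicate number shown by the marker. Genes called higher and lower are separated without overlap, while Kcnip3, Kcnd3 and Kcna1, which were not called, lie within 108 to 166 CPM in all libraries. Kcnj15 is not drawn because 1 library was at 0.

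Two-pore channels (Kcnk) carry the leak current at rest. Of 12 tested, 3 rose, 4 fell and 5 were not called, and their median of -0.30 was near 0 with library size only (-0.03). The channels opened by stretch and lipids fell in part. Kcnk4 (chromosome 19, 3796272 to 3804999 on the BALB/cJ assembly) was at 2.05, 4.49 and 4.83 CPM in I/R and 9.99, 12 and 10 CPM in sham (log2 fold change -1.50, SE 0.29, edgeR adjusted p = 0.00456). Of its 50-base stretches, 13.2% also occur in Catsperz, so part of its count is uncertain. Kcnk2 was at 30.3, 38.4 and 32.7 CPM in I/R and 57.6, 55.8 and 50.5 CPM in sham (-0.69, SE 0.11, adjusted p = 0.00197). The related Kcnk10 was at 0.09 (adjusted p = 0.83), and at -0.26 without I/R replicate 1.

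Kcnk9, an acid-sensitive leak channel, was at 5.58, 7.35 and 8.12 CPM in I/R and 12, 13.7 and 12.4 CPM in sham (log2 fold change -0.86, SE 0.17, edgeR adjusted p = 0.00485). Kcnk3, also acid-sensitive, was at -0.32 (edgeR adjusted p = 0.108), and Gm9899 overlaps it on the opposite strand with 0.678 times its reads. Kcnk1, the most abundant Kcnk member per length, was at 65.6, 127 and 95.8 CPM in I/R and 112, 106 and 135 CPM in sham. The groups overlapped, and the log2 fold change was -0.29 (SE 0.22, adjusted p = 0.349). Kcnk12 fell by 0.52 (adjusted p = 0.0295) and lost its call without sham replicate 2 (0.125) or sham replicate 3 (0.0773).

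Kcnk13, Kcnk5 and Kcnk6 rose, all from low levels. Kcnk13, a leak channel known from microglia, was at 15.3, 10.3 and 9.73 CPM in I/R and 6.51, 4.70 and 4.97 CPM in sham (log2 fold change 1.13, SE 0.22, edgeR adjusted p = 0.00448). Kcnk5, opened by alkaline medium, had 3.35, 2.37 and 2.17 CPM in I/R and 1.60, 0.894 and 0.644 CPM in sham (1.32, SE 0.37, adjusted p = 0.0221). Kcnk6 had 8.80, 6.85 and 7.07 CPM in I/R and 3.27, 4.80 and 5.73 CPM in sham (0.72, SE 0.23, adjusted p = 0.0387). In all 3 genes the I/R libraries were above the sham libraries. Kcnk13 was called in all 17 refits, whereas Kcnk5 lost its call without sham replicate 2 (0.0917) or 3 (0.0767), and Kcnk6 without I/R replicate 2 (0.0648) or 3 (0.0598) or sham replicate 1 (0.113) or 2 (0.102).

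Of 6 microglial markers, 2 rose and 2 fell, with Aif1 higher (0.74) and P2ry12 and Tmem119 lower (-1.69 and -0.70), and their sum was 231 to 318 CPM in I/R and 220 to 251 CPM in sham. Of 5 tested monocyte and neutrophil markers, 4 rose, from a sum of 4.36 to 5.96 CPM in sham to 16.7 to 55.3 CPM in I/R. I/R replicate 1 had the highest sum of these markers and was also the highest library in 7 of the 9 members that rose. The part of these cells in the rises was not tested. Kcnk7 was at 1.62 and Kcnk18 at -1.93 (adjusted p = 0.161 and 0.319), with at most 13 and 6 reads in any library.

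Calcium-activated channels (Kcnm and Kcnn) showed 4 falls and 0 rises among 9 tested, with a median of -0.59 (-0.31 with library size only). Rises numbered 0 at an unadjusted p under 0.05 and 0 by DESeq2. Kcnma1, the pore of the large-conductance channel, was at 58.5, 101 and 100 CPM in I/R and 145, 143 and 140 CPM in sham (log2 fold change -0.72, SE 0.19, edgeR adjusted p = 0.0199). It lost its call without any 1 sham library (adjusted p = 0.0523 to 0.0656), and A830039N20Rik overlaps it on the same strand with 11911 reads against 26987 for Kcnma1. The small-conductance pores Kcnn1, Kcnn2 and Kcnn3, which are opened by calcium that enters during spikes, all fell. Kcnn2 was at 21, 37 and 38.6 CPM in I/R and 63.9, 64.5 and 60.3 CPM in sham (-0.97, SE 0.21, adjusted p = 0.0082), Kcnn3 at 19.1, 21 and 20.2 CPM in I/R and 32.7, 34.4 and 29.5 CPM in sham (-0.68, SE 0.10, adjusted p = 0.00154). Kcnn1 was at 15.9, 18.2 and 15.7 CPM in I/R and 23.7, 27.4 and 24.9 CPM in sham (-0.61, SE 0.12, adjusted p = 0.00391), and lost its call with library size only (-0.33, adjusted p = 0.0508). In each of the 3 genes the groups were apart.

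Kcnmb1, Kcnmb2 and Kcnmb4, the beta subunits of the large-conductance channel, were not called. Kcnmb4, the neuronal one, was at -0.59 (edgeR adjusted p = 0.127) and overlaps Kcnmb4os2 on the opposite strand, which had 736 reads against its 555. Kcnmb2 was at -0.07, and at 0.19 with library size only. Kcnmb1, the smooth muscle subunit, was at 0.77 (adjusted p = 0.176) and passed without sham replicate 1 (1.32, adjusted p = 0.0393), but Kcnip1 overlaps it on the opposite strand with 15.7 times its reads. Kcnn4, the intermediate-conductance channel of immune cells and microglia, stayed under 1 CPM in every library (log2 fold change 0.31, adjusted p = 0.721).

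The Kcnq genes encode the M-current, which muscarinic receptors close, and the Kcnh genes the ether-a-go-go channels. Of 14 tested, 8 fell, Kcnq1 rose and 5 were not called, with a median of -0.64 (-0.37 with library size only). Kcnq3 and Kcnq5, of the neuronal M-current, fell. Kcnq5 (chromosome 1, 18530698 to 19125558 on the BALB/cJ assembly) was at 16.2, 42.9 and 50.8 CPM in I/R and 115, 101 and 106 CPM in sham (log2 fold change -1.55, SE 0.37, edgeR adjusted p = 0.0167), and lost its call with no count filter (adjusted p = 0.0826). Kcnq3 was at 81.7, 168 and 168 CPM in I/R and 362, 316 and 327 CPM in sham (-1.27, SE 0.25, adjusted p = 0.00647). In both the I/R libraries lay under the sham libraries, with I/R replicate 1 lowest.

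Kcnq1, the channel of cardiac muscle and epithelia, was at 1.51, 1.07 and 1.10 CPM in I/R and 0.360, 0.497 and 0.614 CPM in sham (log2 fold change 1.32, SE 0.37, edgeR adjusted p = 0.0224). Its call was lost without I/R replicate 1 (0.0569), sham replicate 1 (0.0761) or sham replicate 2 (0.0661). The non-coding RNA Kcnq1ot1 lies over it on the opposite strand with 18.1 times its reads, and had a log2 fold change of 0.56 (adjusted p = 0.0878). Since no source states whether counting used the strand, reads of the pair cannot be told apart.

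Among the 8 tested Kcnh genes 5 fell and 0 rose in edgeR, with 0 rises at an unadjusted p under 0.05 and 0 by DESeq2. Kcnh1, an ether-a-go-go pore of forebrain neurons, was at 25.7, 39.5 and 36.5 CPM in I/R and 74.5, 77.7 and 79.1 CPM in sham (log2 fold change -1.19, SE 0.15, edgeR adjusted p = 0.000659). Kcnh3, which belongs to the ELK branch and is abundant in forebrain, fell by 1.09 (adjusted p = 0.00295), but Mcrs1 overlaps it on the opposite strand with 0.787 times its reads. Kcnh7 and Kcnh2, of the ERG branch, fell by 1.06 and 0.43 (adjusted p = 0.00602 and 0.0367), and Kcnh5 by 0.86 (adjusted p = 0.0141). Kcnh2 lost its call without I/R replicate 3 (0.0811) or any 1 sham library (0.0604 to 0.131), and Kcnh5 without sham replicate 1 (0.0578) or sham replicate 3 (0.0539). With library size only both were not called, Kcnh2 at -0.15 (adjusted p = 0.379) and Kcnh5 at -0.59 (0.0503). Kcnh4 was at -0.01, Kcnh6 at -0.14 and Kcnh8 at -0.41, with adjusted p-values of 0.657 to 0.984, and Kcnh4 and Kcnh6 stood at 0.27 and 0.14 with library size only.

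Of the 5 Kcnt, Kcnu and Kcnv genes, Kcnt1 alone was called. Kcnt1, a pore opened by intracellular sodium, was at 46.2, 36.5 and 38.3 CPM in I/R and 49.6, 52.5 and 52.8 CPM in sham (log2 fold change -0.36, SE 0.11, edgeR adjusted p = 0.0321). That small fall lost its call without I/R replicate 2 (0.0909) or 3 (0.0676), without any 1 sham library (0.0738 to 0.11) and with library size only (-0.07, 0.7). The sister gene Kcnt2 was at 8.58, 17.6 and 22.3 CPM in I/R and 35.5, 25.6 and 30.7 CPM in sham (-0.93, SE 0.31, adjusted p = 0.0526), and passed without I/R replicate 1 (-0.62, 0.00489) or 3 (-1.25, 0.0159). The silent subunit Kcnv1 was at 10.5, 38.8 and 41.3 CPM in I/R and 63.1, 57.7 and 57.3 CPM in sham. I/R replicate 1 stood far under the other I/R libraries there, and the log2 fold change of Kcnv1 was -0.98 (SE 0.46, adjusted p = 0.148) with it and -0.57 (adjusted p = 1.63e-05) without it. Kcnv2, a subunit of photoreceptors, was under 1 CPM in every library (log2 fold change 2.09, adjusted p = 0.0704). The sperm channel Kcnu1 was at -0.37 (adjusted p = 0.276).

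The non-coding members lie over channel genes on the opposite strand, so their counts share the same uncertainty. Of the 4 tested, 0 were called by edgeR, 2 had an unadjusted p under 0.05 for a rise, and DESeq2 called Kcnd3os higher. Kcnd3os was at 0.84 (edgeR adjusted p = 0.0649) beside 72.1 times as many reads for Kcnd3. Kcnab3os was at 0.55 with 21 reads in all, and Kcnmb4os2 at -0.38 (adjusted p = 0.766 and 0.346). Kcnrg, whose protein holds back Kcna channels, was at -0.04 (adjusted p = 0.972) under Dleu2, which had 17.8 times its reads.

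Under 10 reads in all were Kcna7 (8 reads), Kcne1 (4), Kcnj1 (0), Kcnk15 (8), Kcnk16 (0), Kcnmb3 (9) and Kcnmb4os1 (4). No fold change was computed for them.

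Proteins that travel with these channels were followed in a separate list of 17, of which 16 were named in the table and tested. Of these, 10 fell and 2 rose, with a median log2 fold change of -0.63 (all genes tested, 16.3% lower and 17.2% higher). With library size only 7 fell and 3 rose (all genes, 8.49% lower and 28.2% higher). Falls also numbered 7 when any 1 sham library was left out (all genes, 10.6% to 11.6% lower). Abcc8 fell by 1.38, and Cntnap2, which clusters Kcna channels beside the node of Ranvier, was at 47.4, 81.9 and 78.7 CPM in I/R and 173, 156 and 159 CPM in sham (log2 fold change -1.23, SE 0.19, edgeR adjusted p = 0.00186). Dlg4, the scaffold of the excitatory synapse, fell by 1.16 (adjusted p = 0.00115). Of the A-type partners, Dpp6 was at 175, 251 and 270 CPM in I/R and 448, 453 and 428 CPM in sham and fell by 0.93 (SE 0.16, adjusted p = 0.00255), and Dpp10 fell by 0.51 (adjusted p = 0.0272). Amigo1, a partner of delayed rectifier channels, fell by 0.71, and Adam22 and Lgi1, of the axonal Kcna complex, fell by 0.94 and 0.54 (adjusted p = 0.00207, 0.00255 and 0.0282). Dlg2 and Lrrc38 also fell, by 0.76 and 1.10.

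The rises in this list were Dlg1, a scaffold of Kcna and Kcnj channels, at 157, 140 and 135 CPM in I/R and 104, 112 and 106 CPM in sham (log2 fold change 0.42, SE 0.09, edgeR adjusted p = 0.00817), and Lrrc55, a gamma subunit of the large-conductance channel, at 0.49 (adjusted p = 0.0211). Both were above the sham range in all 3 I/R libraries. Cntn2, Abcc9, Lrrc26 and Lrrc52 were not called, with log2 fold changes of -0.24, 0.29, 0.08 and 0.50, and Ank3 was not analysed here.

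Astrocytes and oligodendrocytes also hold some of these channels. Among 5 astrocyte markers, Gfap and Aqp4 rose and Gja1 and Slc1a3 fell, and the sum was 2492 to 3171 CPM in I/R and 1392 to 1499 CPM in sham, with Gfap at 1709 to 2375 CPM and 377 to 438 CPM of it. Kcnj16 and Kcnk1, which astrocytes also express, had log2 fold changes of -0.74 and -0.29. Among 6 oligodendrocyte markers, 3 fell and 0 rose in edgeR with TMM (median -0.42), with 1 rise at an unadjusted p under 0.05 and 1 by DESeq2. With library size only 0 of these markers fell and 1 rose, and among the astrocyte markers 3 rose and 1 fell. The part of these cells in the members' values was not tested.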

How the data were processed

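Raw read counts per gene in 6 hippocampus libraries (3 I/R, 3 sham, by sample title) were the main measurement. The authors aligned the reads with TopHat 2 to an Ensembl genome and counted them with HTSeq 0.6.1p2, and deposited the counts, FPKM, and their own fold changes and p-values, which were not used here. The submitters' processing notes name Bowtie 0.12.2 and mm8 instead, whereas the identifiers of 40303 of 41386 genes are those of the BALB/cJ assembly, on which the table's coordinates are given. The mice were C57BL/6 (C57BL/6J in the study's methods), so reads were assigned to the annotation of another strain. Strand use and the handling of reads with several matches are not given in the sources used here, which leaves overlapping genes and near copies uncertain. The deposited counts sum to 37493042 to 44788547 per library. At this depth 3 reads, taken as the floor of a library, were 0.0799 CPM in sham, and this floor covers counting error only. 4 lines split in the table were rejoined. Each replicate was a pool of hippocampi per the study's methods, and the p-values measure the spread between such pools.

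The test was the quasi-likelihood one of edgeR 4.0.16 (R 4.3.3, TMM factors 0.899 to 1.17, robust glmQLFit, glmQLFTest, no covariate) on genes with 10 or more reads over the 6 libraries, with Benjamini-Hochberg adjustment over 22996 genes. The fold limit of 1.2 is the study's. SE is the size of the log2 fold change over the square root of F. The deposited FPKM, a level per gene length and library size from the authors, served for levels between genes and for shares within a family, and its log2 (with 1 or 0.1 added) for limma 3.58.1 as an alternative. The lengths behind the FPKM were not the listed ones for every gene, Kcnab2, Kcnd3 and Kcnj9 among them. The order of genes by FPKM can therefore differ from that by counts per listed length. DESeq2 1.42.0, other scalings and filters, a replicate block and leaving out libraries were the other alternatives.

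The members and lists were chosen with earlier results of these data known. In each name group the 3 largest called rises and falls and the 3 members highest in sham FPKM were given by library, apart from some members that count in every total but are not reported singly here. The library values of Kcnip3, Kcnd2, Kcnd3, Kcna1, Kcna2, Kcne2, Cntnap2, Dpp6 and Dlg1, and the family shares with their values without each library, were added after seeing the data. Promoter windows and their motifs came from RefSeq (GRCm38.p6), and shared 50-base stretches from GENCODE M21 transcripts. For 5 of the 6 printed windows, a short stretch just after the annotated start occurred in a GENCODE transcript of the gene. This does not show where that transcript begins.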

Additional observations from a re-analysis of the deposited data

How the results depend on the processing

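Of the 53 called members, 30 (5 higher, 25 lower) kept the call in each of the 17 refits that tested them, 23 lost it in at least 1, and 0 changed direction. The higher count was 9, and 14 with library size only (leaving out 1 library gave 5 to 9, the lowest without sham replicate 2). The lower count was 44, and 22 with a fold over 2 (leaving out 1 library gave 32 to 48). Of all genes, 28.2% were higher and 8.49% lower with library size only. With 1 library left out, 12.2% to 18.3% of all genes were higher and 10.6% to 18.3% lower. The members' median of -0.51 was -0.24 with library size only, -0.17 with log2 FPKM plus 1 and -0.20 with log2 FPKM plus 0.1 (-0.62 to -0.45 with 1 library left out). The replicate numbers did not pair the libraries (correlations of same-numbered deviations -0.0967, 0.0556 and -0.184), and with the replicate block 7 members were higher and 40 lower (Kcne1l, Kcnk6, Kcng3, Kcnip4, Kcnj3, Kcnq1, Kcns3 and Kcnt1 lost the call, and Kcng1 and Kcnq1ot1 gained one).

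Among the 37 members that were not called, 17 turned direction in at least 1 refit and 12 passed the test in at least 1. With library size only the log2 fold changes were Kcna1 0.06, Kcna3 0.22, Kcna4 0.19, Kcna5 0.01, Kcna6 0.00, Kcne3 0.05, Kcnf1 0.08, Kcnh4 0.27, Kcnh6 0.14, Kcnip1 0.01, Kcnmb2 0.19 and Kcnrg 0.25. With log2 FPKM plus 1 they were Kcna1 0.06, Kcna3 0.19, Kcna4 0.18, Kcna5 0.00, Kcne3 0.04, Kcnf1 0.07, Kcnh4 0.12, Kcnh6 0.07, Kcnip1 0.01, Kcnmb2 0.13 and Kcnrg 0.11. With log2 FPKM plus 0.1 they were Kcna1 0.06, Kcna3 0.22, Kcna4 0.19, Kcne3 0.36, Kcnf1 0.08, Kcnh4 0.22, Kcnh6 0.13, Kcnip1 0.01, Kcnmb2 0.16 and Kcnrg 0.37. With the replicate block Kcne3 was 0.25 and Kcnrg 0.12, and Kcnh4 was 0.01 with filterByExpr and 0.04 with 10 reads in every library. Without both sham replicate 1 and I/R replicate 3 the values were Kcne3 1.0, Kcnh4 0.09, Kcnh8 0.03 and Kcnn4 -0.04. Leaving out libraries, the values ran from -0.21 to 0.05 for Kcna4, -0.58 to 1.25 for Kcnab3os, -0.75 to 1.0 for Kcne3 (0.87 at most with 1 library out), -0.23 to 0.09 for Kcnh4, -1.43 to 0.03 for Kcnh8, -0.26 to 0.24 for Kcnk10, -0.36 to 0.15 for Kcnmb2, -0.09 to 0.64 for Kcnn4 and -0.46 to 0.40 for Kcnrg. The cause of these changes was not tested. Depth limits members under 1 CPM, whose SE reached 1.49.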
